A study of Homo sapiens with 4 samples.

Results

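Lysosomal genes were examined in HCC1954 cells, an established HER2-amplified human breast cancer line, with or without knockdown of ZDHHC15, a palmitoyltransferase. Members were the protein-coding genes whose symbol begins with ATP6V0 or ATP6V1, which name subunits of the vacuolar proton pump (V-ATPase), together with 33 listed genes for lysosomal enzymes, lysosomal membrane proteins and the transcription factors of the TFEB family. In all, 57 of the 58735 genes of the deposited count table met this rule, out of 19951 protein-coding genes. They comprised 11 cathepsins and legumain, 8 glycosidases, 5 lipid-degrading enzymes and luminal lipid-handling proteins, 6 membrane proteins, 9 genes with V0 symbols, 15 genes with V1 symbols and 3 genes of the TFEB family. ATP6V1FNB, a neighbour of ATP6V1F, and ATP6V1G2-DDX39B, a readthrough transcript, carry V1 symbols but encode no subunit.

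RNA-seq was performed on 2 shCON samples, which received a scrambled hairpin, and 2 shZDHHC15 samples, which received a GIPZ hairpin against ZDHHC15. All 4 came from the same line in RPMI-1640 medium with fetal bovine serum, and no other agent or time point is given. The sample labels describe a stable knockdown in one field and a transient transfection with Lipofectamine in another. They do not state whether the 2 samples of a group were separate cultures or clones, so the p-values measure the spread between these samples, which may be technical. Total counts ran from 17560982 to 19118704 per sample. ZDHHC15 had 17617 and 15716 counts in shCON and 0 counts in both shZDHHC15 samples, which allows up to 3 counts in each. All 7 markers of the line (ERBB2, GRB7, EPCAM, CDH1, KRT5, KRT8 and KRT18) were present, and 6 of them, all but CDH1, were lower in shZDHHC15, so that their summed level went from between 18900 and 20500 CPM (read counts scaled to library size) to between 11800 and 12000 CPM. ESR1 and PGR, chosen as markers that are low in the line, summed to 8.89 and 6.11 CPM in shCON and 16.5 and 15.5 CPM in shZDHHC15. Only 1 of these 2 had enough counts to test, and it was called higher (log2 fold change 1.09). Of 10 leukocyte markers, 4 were at 0 in all samples, among them TYROBP and CD3E, PTPRC did not exceed 4 counts, and their summed level was 9.82 and 12.2 CPM in shCON and 6.12 and 7.08 CPM in shZDHHC15. Of the 2 leukocyte markers with enough counts to test, CSF1R, with 153 and 177 counts in shCON and 68 and 105 in shZDHHC15, was called lower, and CD14, with 9 and 5 against 25 and 22, was called higher (log2 fold change 1.61 ± 0.49), a call lost without shCON replicate 2 (adjusted p = 0.134, edgeR), without shZDHHC15 replicate 1 (0.0694) and with the DESeq2 Wald test (0.100). In bulk RNA, fewer cells with a transcript and less transcript per cell cannot be told apart.

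Lysosomes are acidic compartments in which proteins, glycans and lipids delivered by endocytosis, autophagy and biosynthetic traffic are degraded. Soluble hydrolases are tagged with mannose 6-phosphate in the Golgi and carried onward by sorting receptors, among them IGF2R and M6PR, while sortilin (SORT1) carries others. The V-ATPase acidifies the lumen: its V0 sector conducts protons through the membrane and its V1 sector hydrolyses ATP in the cytosol. TFEB, TFE3 and MITF are related transcription factors that bind E-boxes in the promoters of many lysosomal genes, the so-called CLEAR elements, and that are held in the cytosol when mTORC1 is active at the lysosomal surface.

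Promoter sequences were read to show where such E-boxes lie in the members. RefSeq promoter windows (GRCh38.p14, 250 bases before to 50 bases after a start site) were matched by symbol for 40 of the 57 members, with 61 windows because several genes have more than 1 start site. The letters CACGTG, a palindrome and therefore the same on both strands, were found in 12 of 61 member windows (19.7%) and in 7.26% of all 35116 windows in the table. Counted by gene, in any window, they were found in 11 of 40 members (27.5%) and in 8.77% of all 27305 genes. The longer CLEAR-type palindrome, CACGTG preceded by GT and followed by AC, was found in 3 of 61 member windows (4.92%), those of GAA, MCOLN1 and ATP6V1G1, and in 0.353% of all windows. The bases upstream of the start site are shown for 5 members on which the comparison turns: 3 that rose or did not pass the test while carrying the most or longest matches (GAA, LAMP1 and MCOLN1), 1 glycosidase with a single match (NEU1), and CTSZ, the member that fell most, which has no match. They are printed 5′ to 3′ on the strand of the gene, with every match in capitals. Not printed are ATP6V0B, ATP6V0E2 and CD63, which fell and also carry CACGTG, and CTSD and ATP6V0D1, which rose and carry it. LIPA and SCARB2, which rose most among the members with a window, carry no CACGTG there and are not printed either. GAA, acid alpha-glucosidase, is shown from chr17:80101331-80101580 (plus strand, its last 25 bases lying in the first exon of GENCODE 29), LAMP1, the major lysosomal membrane glycoprotein, from chr13:113296989-113297238 (plus strand), and NEU1, lysosomal sialidase, from chr6:31862907-31863071 (minus strand, ending before the first exon of GENCODE 29). MCOLN1, a calcium channel of the lysosomal membrane, is shown from chr19:7522374-7522623 (plus strand) and CTSZ, cathepsin Z, from chr20:59007255-59007504 (minus strand).
GAA: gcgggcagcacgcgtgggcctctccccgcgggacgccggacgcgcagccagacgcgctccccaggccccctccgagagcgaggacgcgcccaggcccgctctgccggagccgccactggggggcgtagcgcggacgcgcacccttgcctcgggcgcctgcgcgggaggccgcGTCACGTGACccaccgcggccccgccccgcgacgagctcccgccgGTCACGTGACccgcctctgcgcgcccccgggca
LAMP1: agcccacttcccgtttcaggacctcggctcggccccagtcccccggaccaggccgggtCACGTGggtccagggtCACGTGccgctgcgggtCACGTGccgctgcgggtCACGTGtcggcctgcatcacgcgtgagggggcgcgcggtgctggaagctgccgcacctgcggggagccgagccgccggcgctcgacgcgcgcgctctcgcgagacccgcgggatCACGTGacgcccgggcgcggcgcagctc
NEU1: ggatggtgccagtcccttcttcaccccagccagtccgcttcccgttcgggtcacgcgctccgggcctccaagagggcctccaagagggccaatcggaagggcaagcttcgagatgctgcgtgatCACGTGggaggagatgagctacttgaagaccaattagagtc
MCOLN1: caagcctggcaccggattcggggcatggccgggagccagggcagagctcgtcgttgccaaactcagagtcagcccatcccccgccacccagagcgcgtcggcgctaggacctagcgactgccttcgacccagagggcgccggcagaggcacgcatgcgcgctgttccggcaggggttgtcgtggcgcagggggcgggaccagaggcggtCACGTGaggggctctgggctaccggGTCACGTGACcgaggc
CTSZ: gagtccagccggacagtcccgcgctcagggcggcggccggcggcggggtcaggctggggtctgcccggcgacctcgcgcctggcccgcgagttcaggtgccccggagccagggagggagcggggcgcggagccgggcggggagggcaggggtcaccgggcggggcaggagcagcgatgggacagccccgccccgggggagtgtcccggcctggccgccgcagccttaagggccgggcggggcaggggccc

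GAA carries a pair of the longer palindrome, which begin 78 and 33 bases before the start site. LAMP1 carries 5 CACGTG matches in the bases shown and a sixth that begins at the last base before the start site. MCOLN1 carries CACGTG and, 16 bases before the start site, the longer palindrome. Read against the direction of the RNA change, matches to CACGTG were present in 5 of 17 windows of members that rose (29.4%), in 4 of 17 windows of members that fell (23.5%) and in 3 of 21 windows of members that did not pass the test (14.3%). Windows of a gene can overlap, and those of ATP6V0E2, which fell, from chr7:149872714 and chr7:149872718 hold the same match. Neither of the other motifs searched on both strands was more frequent in member windows than in all windows: the core of the interferon-stimulated response element (TTTC, a pair of bases of any kind, TTTC) was found in 0 of 61 member windows against 3.57% of all windows, and TTCNNNGAA, a STAT-type site, in 4 of 61 (6.56%) against 7.66%. CTSS, LGMN, CTSK, PSAP, ATP6V1A and ATP6V1H, which rose, had no window and were not searched for any motif. The same holds for CTSB, LAMP2 and ATP6V1E2, which fell. These matches describe letters within the windows and are not measurements of binding.

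Across the members, more genes rose than fell in shZDHHC15 cells. Of 57 members, 52 passed the filter on low counts and were tested with edgeR's quasi-likelihood test and Benjamini-Hochberg adjustment over 15817 genes. At an adjusted p under 0.05, 19 members were higher in shZDHHC15 (36.5%), where 21.7% of all tested genes were, and 10 members were lower (19.2%), where 20.3% of all tested genes were. Together 29 of 52 passed, against 42.0% of all tested genes, and 23 did not. The change exceeded 2-fold in 3 members that rose, CTSS, LIPA and SCARB2, against 7.51% of all genes, and in 1 member that fell, CTSZ, against 3.79% of all genes. The median log2 fold change was 0.16 for the 52 tested members and 0.02 for all tested genes. The samples of the 2 groups did not overlap in any of the 29 called members. Counting by non-overlap alone, 32 members were higher and 15 lower, against 37.2% and 35.3% of all genes. In exact permutation tests of single values the smallest two-sided p that 2 against 2 samples allow is 0.333, so the tests rest on the fit across all genes. The counts of each class are read against the same shares of all tested genes, and no difference between classes was tested.

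**Figure D1:**
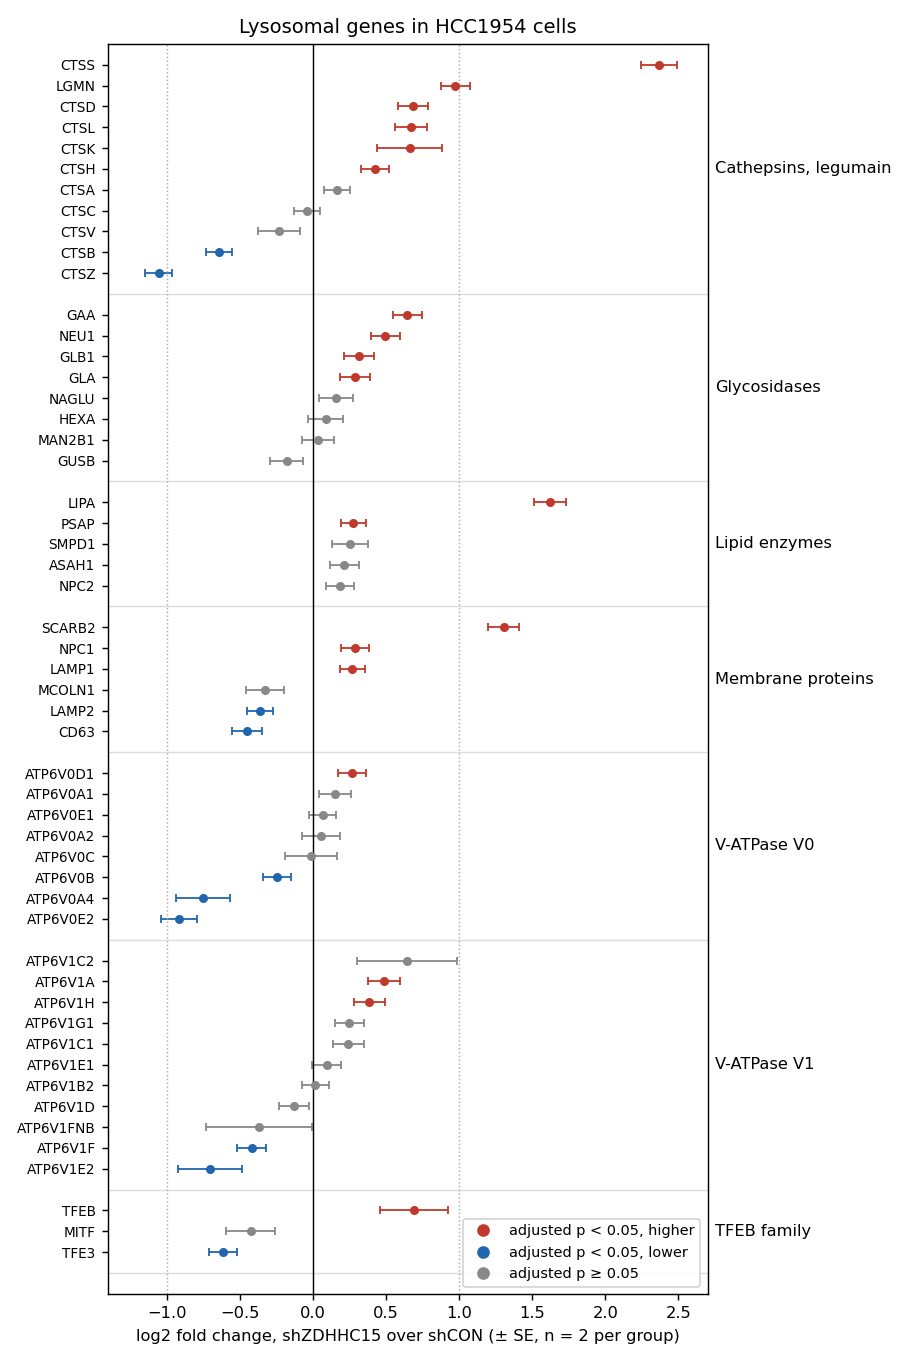
Each point is the log2 fold change of 1 of the 52 tested members (shZDHHC15 over shCON, 2 samples per group) with its standard error as a bar, grouped by class, and the dotted lines mark 2-fold changes. Most luminal enzymes lie to the right of 0, with CTSS at 2.37 farthest, and the V-ATPase genes and membrane proteins lie on both sides.

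The cathepsins, the main lysosomal proteases, and legumain, the asparaginyl endopeptidase that processes them, held genes called in each direction. Of the 11 genes, 6 rose (54.5%, against 21.7% of all tested genes), 2 fell (18.2%, against 20.3%) and 3 did not pass, with a median log2 fold change of 0.42. CTSS, cathepsin S, a cysteine protease that trims the invariant chain of MHC class II, had 826 and 809 counts in shCON and 5049 and 4121 counts in shZDHHC15. Both shZDHHC15 samples lay far above both shCON samples, from 46.6 ± 1.88 to 241 ± 43.3 CPM (SD, n = 2 each), a 5.16-fold rise (log2 fold change 2.37 ± 0.12 SE, adjusted p = 1.49e-09, edgeR). Legumain (LGMN) rose from 81.2 ± 0.499 to 160 ± 12.1 CPM (log2 fold change 0.97 ± 0.10, adjusted p = 2.19e-06, edgeR). The aspartic protease CTSD rose by 0.69, the cysteine proteases CTSL and CTSK by 0.67 and 0.66, and the aminopeptidase CTSH by 0.42 on the log2 scale. CTSK, the collagen-degrading cathepsin of osteoclasts, remained low, with 64 and 57 counts in shCON and 104 and 105 in shZDHHC15. The call of CTSK was lost on leaving out any 1 sample, at adjusted p values of 0.0601 to 0.0998 (edgeR). The osteoclast markers ACP5, CALCR and OSCAR summed to 0.549 and 0.237 CPM in shCON and 0.752 and 0.815 CPM in shZDHHC15. The 6 fibroblast markers, of which LUM was at 0, summed to 5.81 and 7.17 CPM in shCON and 11.5 and 8.56 CPM in shZDHHC15. Only 1 of these 6 had enough counts to test, and it was called higher in shZDHHC15 (log2 fold change 0.65). The part of osteoclasts or fibroblasts in these results was not tested. The exons of CTSD are overlapped over 41.7% of their length by AC068580.4 on the same strand, which held no more than 28 counts in any sample. How reads in the shared stretch were assigned is not given, so the level of CTSD and its share of the class are uncertain.

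The 2 cathepsins that fell were the most abundant of the class. CTSZ, a carboxypeptidase, had 13138 and 13627 counts in shCON and 6625 and 7459 counts in shZDHHC15. Both shZDHHC15 samples lay well below both controls, from 764 ± 61.7 to 368 ± 17.1 CPM, at 0.481 of the control level (log2 fold change -1.05 ± 0.09, adjusted p = 5.02e-07, edgeR). CTSB, cathepsin B, an endo- and exopeptidase, fell from 24538 and 25227 counts to 17291 and 17557 counts (log2 fold change -0.64 ± 0.09, adjusted p = 4.49e-05, edgeR). CTSA, the protective protein of the sialidase complex, CTSC, the dipeptidyl peptidase that activates granule proteases, and CTSV, a close relative of CTSL, did not pass the test, with log2 fold changes of 0.17 ± 0.09, -0.04 ± 0.09 and -0.23 ± 0.14. By library size only CTSA was called higher (adjusted p = 0.0379, edgeR).

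Because levels per length differ widely between these genes, the sum of the class moved against its median member. Levels were expressed as CPM per kilobase of summed exon length. That length holds every annotated exon, whether or not these cells use it, so the shares depend on the annotation. In CPM without length, CTSB (1421 in shCON) lay above CTSZ (764), and CTSC (706) lay close to CTSZ. The 11 genes summed to 790 ± 53.0 CPM per kilobase in shCON and 645 ± 21.9 in shZDHHC15, a ratio of 0.817, and the 2 groups did not overlap. CTSZ made up 47.0% and 47.9% of that sum in the shCON samples and 26.4% and 29.6% in the shZDHHC15 samples. The share of CTSB went from 24.2% to 19.0% (means of 2). Those of CTSD, CTSS, LGMN and CTSL went in the other direction, from 6.22% to 12.3%, from 1.40% to 8.80%, from 2.64% to 6.34% and from 2.81% to 5.48%. These sums and shares carry no test.

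**Figure D2:**
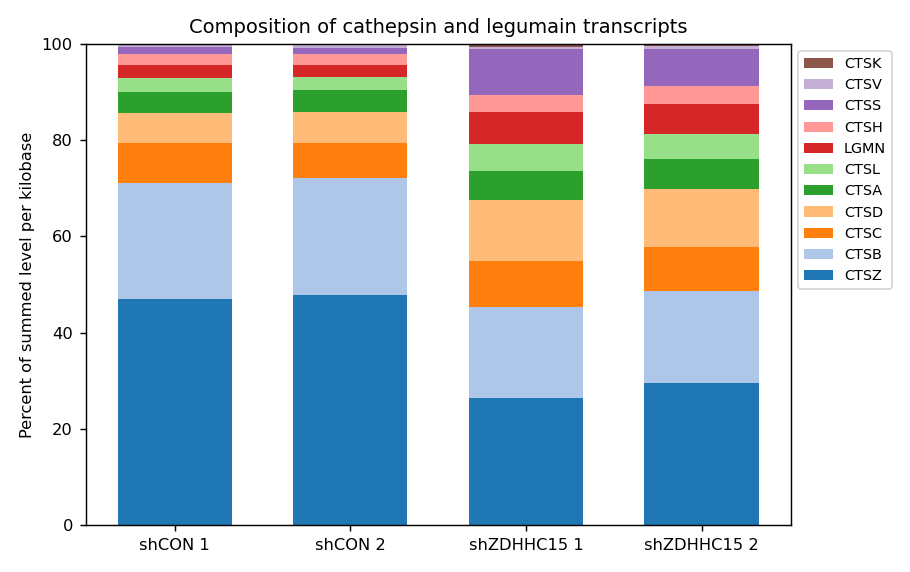
Stacked bars give, for each of the 4 samples, the percentage of the summed cathepsin and legumain level (CPM per kilobase) contributed by each of the 11 genes. CTSZ and CTSB together fill most of the shCON bars, and the bands of CTSS, CTSD, LGMN and CTSL are wider in both shZDHHC15 bars.

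Glycosidases remove sugars from glycoproteins, glycolipids and glycogen. Of 8 genes, 4 rose (50%, against 21.7% of all tested genes), 0 fell (against 20.3%) and 4 did not pass, and the median log2 fold change was 0.23. GAA, whose deficiency causes Pompe disease, had 1002 and 947 counts in shCON and 1602 and 1725 counts in shZDHHC15. The samples within each group were close to each other, and the rise from 55.6 ± 0.835 to 87.0 ± 1.30 CPM was larger than their spread (log2 fold change 0.65 ± 0.10, adjusted p = 1.19e-04, edgeR). NEU1, which removes sialic acid, rose by 0.50, the beta-galactosidase GLB1 by 0.32 and the alpha-galactosidase GLA by 0.29 on the log2 scale. NAGLU and HEXA, which act on terminal N-acetylglucosamine and N-acetylhexosamine, the alpha-mannosidase MAN2B1 and the beta-glucuronidase GUSB did not pass, with log2 fold changes from -0.18 to 0.16. GUSB was called lower without shCON replicate 1 (log2 fold change -0.33, adjusted p = 0.0165, edgeR). The summed level of the 8 genes was 117 ± 7.87 CPM per kilobase in shCON and 144 ± 4.62 in shZDHHC15, a ratio of 1.23. The calls of GLB1 and GLA were lost without shCON replicate 1 (adjusted p = 0.151 and 0.112, edgeR), without shZDHHC15 replicate 1 (0.114 and 0.311) and without shZDHHC15 replicate 2 (0.0933 and 0.0656).

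Among the 5 genes that handle lipids 2 rose (40.0%, against 21.7% of all tested genes), 0 fell (against 20.3%) and 3 did not pass. LIPA, lysosomal acid lipase, which hydrolyses cholesteryl esters and triglycerides taken up with lipoproteins, had 763 and 745 counts in shCON and 2662 and 2390 counts in shZDHHC15. Both knockdown samples lay well above both controls, from 43.0 ± 1.64 to 132 ± 15.0 CPM, a 3.08-fold rise (log2 fold change 1.62 ± 0.11, adjusted p = 3.27e-08, edgeR). A stretch of 65 bases of the LIPA exons (1.32%) overlaps IFIT2 on the opposite strand, and IFIT2 had 234 and 208 counts in shCON and 4792 and 3351 in shZDHHC15. The counting is not stated to use strand, and the part of IFIT2 reads in the LIPA counts was not tested. PSAP, the precursor of the saposins that present sphingolipids to their hydrolases, rose from 749 ± 36.9 to 908 ± 18.9 CPM (log2 fold change 0.28 ± 0.09, adjusted p = 0.0173, edgeR). It lost its call without shCON replicate 1 (adjusted p = 0.0971, edgeR), without shZDHHC15 replicate 1 (0.167) and without shZDHHC15 replicate 2 (0.0891). The sphingomyelinase SMPD1, the ceramidase ASAH1 and the cholesterol carrier NPC2 did not pass, with log2 fold changes of 0.25 ± 0.12, 0.22 ± 0.10 and 0.19 ± 0.09. By library size only they were called higher (adjusted p = 0.0425, 0.0344 and 0.0320, edgeR). ASAH1 was also called higher with a block for replicate number (0.0384, edgeR), and its log2 fold change was 0.28 without shCON replicate 1. The 5 genes summed to 321 ± 14.9 CPM per kilobase in shCON and 400 ± 14.1 in shZDHHC15, a ratio of 1.25.

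The 24 luminal genes of these 3 classes held 12 of the 19 members that rose and 2 of the 10 that fell. Their median log2 fold change was 0.27.

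Among the 6 membrane proteins 3 rose (50%, against 21.7% of all tested genes), 2 fell (33.3%, against 20.3%) and 1 did not pass. SCARB2 (LIMP-2), the membrane protein that carries glucocerebrosidase to the lysosome, had 1274 and 1120 counts in shCON and 3398 and 3039 counts in shZDHHC15. All counts of the knockdown samples were above those of the controls, from 68.1 ± 2.46 to 169 ± 19.6 CPM, a 2.47-fold rise (log2 fold change 1.31 ± 0.11, adjusted p = 2.22e-07, edgeR). NPC1, which exports cholesterol from the lysosome together with NPC2, rose by 0.29 and LAMP1 by 0.27 on the log2 scale. CD63, a tetraspanin of late endosomes and exosomes, went the other way, from 6282 and 7015 counts in shCON to 5251 and 5390 counts in shZDHHC15. That is 380 ± 50.4 CPM in shCON, where the 2 samples lay apart, and 278 ± 5.25 CPM in shZDHHC15 (log2 fold change -0.45 ± 0.10, adjusted p = 2.21e-03, edgeR). LAMP2, which also serves chaperone-mediated autophagy, fell by 0.36 on the log2 scale (adjusted p = 4.17e-03, edgeR) while its relative LAMP1 rose. MCOLN1, whose promoter holds the longer palindrome, had 404 and 396 counts in shCON and 330 and 366 in shZDHHC15 and did not pass (log2 fold change -0.33 ± 0.13, adjusted p = 0.0555, edgeR). It was called lower with DESeq2 size factors (adjusted p = 0.0484, edgeR), with upper-quartile factors (0.0376) and with a block for replicate number (0.0402). Without shCON replicate 1 its log2 fold change was -0.40. Per kilobase the class summed to 279 ± 17.7 in shCON and 244 ± 6.90 in shZDHHC15, with CD63 and LAMP2 as its most abundant members in shCON. LAMP1 lost its call without shCON replicate 1 (adjusted p = 0.0884, edgeR), NPC1 without shCON replicate 2 (0.143), both of them without shZDHHC15 replicate 1 (0.206 and 0.182), and LAMP1, NPC1 and LAMP2 without shZDHHC15 replicate 2 (0.0924, 0.0860 and 0.0612).

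**Figure D3:**
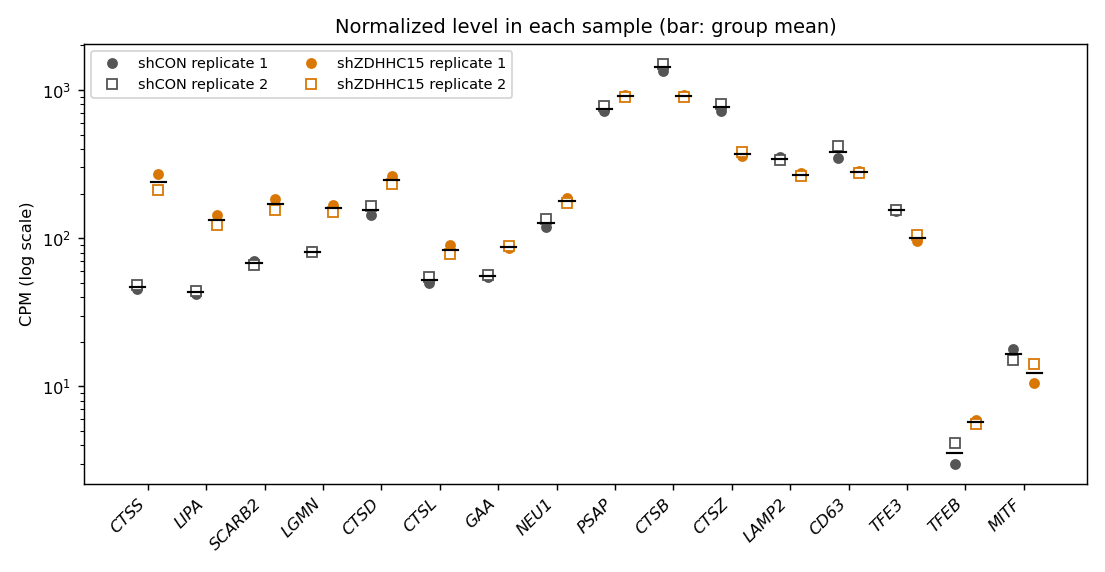
Points give the level of 16 members in each sample (CPM, log axis), with shCON in grey and shZDHHC15 in orange, circles for replicate 1, squares for replicate 2 and a bar for the group mean. CTSS, LIPA and SCARB2 show the widest gaps upward and CTSZ the widest gap downward, while the MITF samples of each group are spread more widely than those of TFE3.

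Of 24 genes with ATP6V0 or ATP6V1 symbols, 19 were tested, among them ATP6V1FNB, which encodes no subunit and did not pass. Of these 19, 3 rose (15.8%, against 21.7% of all tested genes), 5 fell (26.3%, against 20.3%) and 11 did not pass. Their median log2 fold change was 0.06. The 24 genes summed to 511 ± 22.8 CPM per kilobase in shCON and 485 ± 1.90 in shZDHHC15, a ratio of 0.950. That sum leans on ATP6V1F, of 789 bases, at 175 ± 14.4 in shCON and 131 ± 0.565 in shZDHHC15. ATP6V1G1, next in level, went up, from 86.7 ± 7.45 to 103 ± 4.62. The sum leaves out TCIRG1, which supplied most a subunit transcripts, and includes ATP6V0C, whose value is uncertain. It carries no test. The 5 genes left untested for low counts were ATP6V0D2, ATP6V1B1, ATP6V1G2, ATP6V1G3 and ATP6V1G2-DDX39B, with at most 4 counts in any sample. ATP6V1B1, ATP6V1G3 and ATP6V0D2 are isoforms known from kidney, epididymis or osteoclasts, and ATP6V1G2 is known from neurons.

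In the V0 sector 1 of 8 tested genes rose (12.5%, against 21.7% of all tested genes) and 3 fell (37.5%, against 20.3%). ATP6V0D1, the widely expressed d subunit that joins the rotor to V1, had 1933 and 1863 counts in shCON and 2481 and 2497 in shZDHHC15 (log2 fold change 0.27 ± 0.09, adjusted p = 0.0329, edgeR), and the samples of each group lay close together. ATP6V0E2, the less abundant of the e subunits, had 682 and 643 counts in shCON and 402 and 363 in shZDHHC15 (log2 fold change -0.91 ± 0.12, adjusted p = 4.21e-05, edgeR). Both knockdown samples lay far below both controls, whereas its counterpart ATP6V0E1 had a log2 fold change of 0.07 ± 0.09 and did not pass. ATP6V0A4, the a subunit of acid-secreting kidney cells, had 166 and 145 counts in shCON and 96 and 105 in shZDHHC15 (log2 fold change -0.75 ± 0.19, adjusted p = 4.72e-03, edgeR), again without overlap between the groups. ATP6V0B, a proton-binding ring subunit, fell by 0.24 on the log2 scale with an adjusted p of 0.0477 (edgeR), close to the threshold. The calls of ATP6V0D1 and ATP6V0B were lost without shZDHHC15 replicate 1 (adjusted p = 0.243 and 0.186, edgeR) and without shZDHHC15 replicate 2 (0.113 and 0.198), that of ATP6V0D1 also without shCON replicate 1 (0.122), and that of ATP6V0B also without shCON replicate 2 (0.216). ATP6V0C, the main ring subunit, had 129 to 154 counts, and 57.5% of its exon length is overlapped on the same strand by AC093525.2, which held at most 1 count, so its value is uncertain.

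Of 11 tested genes with V1 symbols, ATP6V1FNB among them, 2 rose (18.2%, against 21.7% of all tested genes) and 2 fell (18.2%, against 20.3%). These shares lie close to those of all tested genes. ATP6V1A, the catalytic subunit, had 735 and 638 counts in shCON and 1020 and 1076 in shZDHHC15 (log2 fold change 0.49 ± 0.11, adjusted p = 2.05e-03, edgeR). The knockdown samples were nearly alike and both lay above the controls. ATP6V1H, a regulatory subunit, rose by 0.39 (adjusted p = 8.50e-03, edgeR), a call lost without shZDHHC15 replicate 2 at an adjusted p of 0.0763 (edgeR). ATP6V1F, a subunit of the central shaft, fell by 0.42 (adjusted p = 3.09e-03, edgeR). KCP on the opposite strand overlaps 23.7% of its exon length and held at most 5 counts. ATP6V1E2, the less abundant E subunit, known from testis, had 126 and 97 counts in shCON and 75 and 74 in shZDHHC15 (log2 fold change -0.70 ± 0.22, adjusted p = 0.0171, edgeR). The groups did not overlap, although the controls lay apart from each other. That call was lost without shCON replicate 1, at an adjusted p of 0.0871, and without shZDHHC15 replicate 2, at 0.0653 (edgeR). ATP6V1B2, the B subunit of nearly all cells, was at 103 ± 0.195 and 104 ± 0.955 CPM and did not pass. ATP6V1G1, whose promoter holds the longer palindrome, did not pass either (log2 fold change 0.25 ± 0.10, adjusted p = 0.0544, edgeR). It was called higher by library size only, with a minimum of 10 counts in every sample and with a block for replicate number. ATP6V1C1 (0.24 ± 0.11) did not pass, and was called higher by library size only and with that block. ATP6V1C2, at 19 to 51 counts, had a log2 fold change of 0.64 ± 0.34 and did not pass, and 29.7% of its exon length lies opposite PDIA6, which had between 3329 and 5134 counts.

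Where a subunit has several genes, the less abundant gene fell in the e and E subunits, and in the a subunit ATP6V0A4, slightly above ATP6V0A2 in level per kilobase, fell. Per kilobase, ATP6V0E2 supplied 8.45% of the e subunit transcripts in both shCON samples and 4.79% and 4.15% in the shZDHHC15 samples. ATP6V1E2 supplied 5.94% and 5.04% of the E subunit transcripts in shCON and 3.50% and 3.02% in shZDHHC15. ATP6V0A4 supplied 9.80% and 9.15% of the a subunit transcripts in shCON and 5.53% and 5.34% in shZDHHC15. ATP6V0A2, at 8.19% in shCON and 8.24% in shZDHHC15, and ATP6V0A1, at 16.3% and 17.5% (means of 2), did not pass the test. Most a subunit transcripts came from TCIRG1, the a subunit named for T cells and osteoclasts, at 66.1% in shCON and 68.8% in shZDHHC15 (means of 2). TCIRG1 itself did not pass the test (log2 fold change 0.11 ± 0.10). The accessory subunits ATP6AP1 and ATP6AP2 did not pass either, at 0.05 ± 0.09 and 0.08 ± 0.09. For the C subunit the minor gene ATP6V1C2 held 1.90% in shCON and 2.56% in shZDHHC15, and did not pass the test. All these shares depend on the annotated exon lengths, such as 6751 bases for ATP6V0E2 and 1623 bases for ATP6V0E1.

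**Figure D4:**
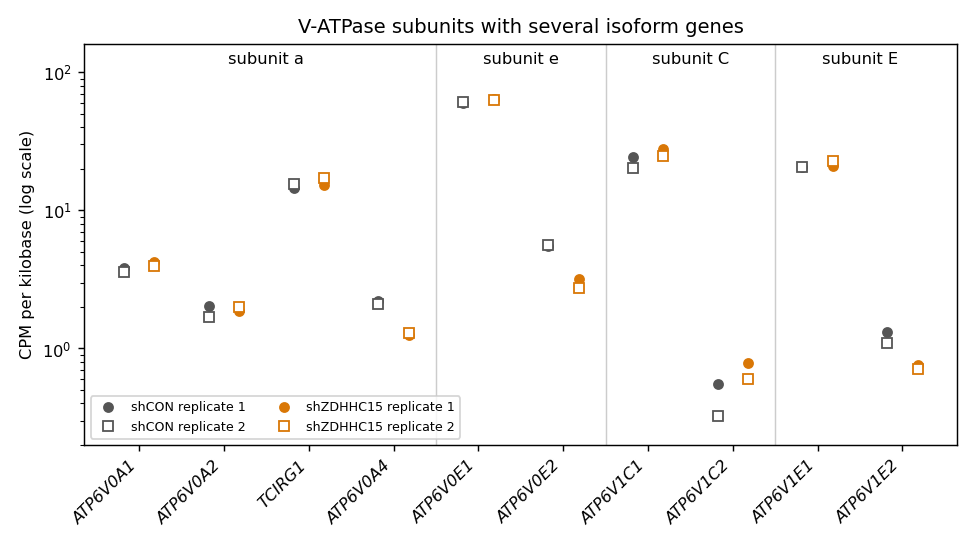
Levels per kilobase (CPM per kilobase, log axis) of the isoform genes of the a, e, C and E subunits are plotted for each of the 4 samples. ATP6V0A4, ATP6V0E2 and ATP6V1E2 lie lower in both shZDHHC15 samples, while the main isoform of each of these subunits lies at a similar or slightly higher level.

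Of the 3 transcription factors of the TFEB family 1 rose (33.3%, against 21.7% of all tested genes), 1 fell (33.3%, against 20.3%) and 1 did not pass. TFE3, the most abundant, had 2790 and 2624 counts in shCON and 1793 and 2067 in shZDHHC15. The knockdown samples both lay below the controls, at 101 ± 6.37 against 154 ± 1.79 CPM (log2 fold change -0.61 ± 0.10, adjusted p = 1.30e-04, edgeR). TFEB was low, with 55 and 70 counts in shCON and 111 and 109 in shZDHHC15. The groups did not overlap (log2 fold change 0.69 ± 0.23, adjusted p = 0.0267, edgeR), but the call was lost without shCON replicate 1 at an adjusted p of 0.222 and without shZDHHC15 replicate 1 at 0.0918 (edgeR). MITF had 328 and 254 counts in shCON and 196 and 276 in shZDHHC15, and although the CPM values did not overlap it did not pass (log2 fold change -0.43 ± 0.17, adjusted p = 0.0538, edgeR). It was called lower with DESeq2 size factors (adjusted p = 0.0437, edgeR), with upper-quartile factors (0.0355) and with a block for replicate number. With 1 sample left out, its log2 fold change ranged from -0.66 to -0.24. Together the family summed to 39.0 ± 0.270 CPM per kilobase in shCON and 26.3 ± 1.78 in shZDHHC15, a ratio of 0.674, of which TFE3 made up 36.0 and 23.5. These are RNA levels, and the amount of each factor in the nucleus was not measured.

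Lysosomal genes outside the member list were counted in the same fit. Of 27 other hydrolases tested, 12 rose (44.4%, against 21.7% of all tested genes) and 4 fell (14.8%, against 20.3%), with a median log2 fold change of 0.29. SCPEP1, a serine carboxypeptidase, had 925 and 837 counts in shCON and 4073 and 3135 in shZDHHC15 (log2 fold change 1.91 ± 0.13), and GALC, galactosylceramidase, 499 and 399 against 1039 and 922 (1.01 ± 0.13). IDS, the iduronate sulfatase deficient in Hunter syndrome, fell steeply, from 1074 and 979 counts to 203 and 280 (-2.21 ± 0.14, adjusted p = 1.07e-08, edgeR). AC244197.3 on the same strand overlaps 16.5% of the IDS exons and held at most 10 counts.

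Among 23 other lysosomal membrane proteins tested, 9 rose (39.1%) and 2 fell (8.70%), against the same 21.7% and 20.3%, with a median log2 fold change of 0.27. LAMP3 (DC-LAMP), known from mature dendritic cells and as an interferon-inducible gene, had 254 and 185 counts in shCON and 2996 and 2428 in shZDHHC15 (log2 fold change 3.51 ± 0.15, adjusted p = 2.15e-10, edgeR), so that the 3 LAMP genes LAMP1, LAMP2 and LAMP3 changed by 0.27, -0.36 and 3.51. SLC11A2 (DMT1), an iron transporter, rose by 1.32 ± 0.10. Of 8 tested V-ATPase genes with other symbols, 2 rose (25.0%) and 1 fell (12.5%). DMXL2, a subunit of the complex that assembles V1 onto V0, rose by 1.67 ± 0.17, and the low gene ATP6AP1L fell by 1.23 on the log2 scale, a call lost without shCON replicate 1 (adjusted p = 0.0640, edgeR) and without shZDHHC15 replicate 1 (0.0515).

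Of 12 genes that tag or sort hydrolases, 4 rose (33.3%) and 2 fell (16.7%), against 21.7% and 20.3% of all tested genes, with a median log2 fold change of 0.05. The 3 sorting receptors and GNPTAB were chosen for description here after their values were seen. IGF2R, the cation-independent mannose 6-phosphate receptor, had 2052 and 1598 counts in shCON and 3829 and 3637 in shZDHHC15 (log2 fold change 0.91 ± 0.11, adjusted p = 8.73e-06, edgeR). M6PR, the cation-dependent receptor, and SORT1 did not pass, at 0.13 ± 0.09 and -0.15 ± 0.10. GNPTAB, which builds the mannose 6-phosphate tag, rose by 0.95 ± 0.16. Of 18 tested regulators that act on TFEB at the lysosomal surface, 7 rose (38.9%) and 2 fell (11.1%), against the same shares, with a median of 0.27. The 2 that fell, also named after their values were seen, were LAMTOR4 (-0.75 ± 0.11) and LAMTOR1 (-0.59 ± 0.09), subunits of the Ragulator complex that anchors Rag GTPases to the lysosome. The Rag GTPase RRAGD, likewise chosen and itself known as a TFEB target, rose by 0.98 ± 0.15.

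**Figure D5:**
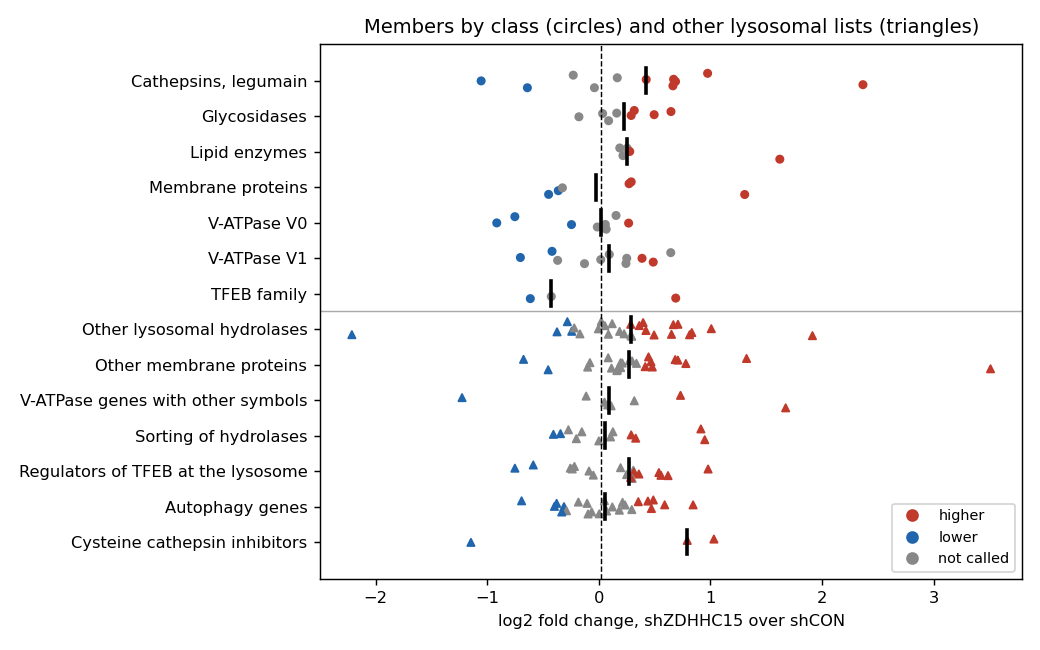
Each symbol is the log2 fold change of 1 tested gene (shZDHHC15 over shCON), with members as circles by class, genes of other lysosomal lists as triangles, a black bar at each median and a dashed line at the median of all tested genes (0.02). The medians of cathepsins (0.42), other hydrolases (0.29) and other membrane proteins (0.27) lie to the right of that line, those of both V-ATPase sectors (0.02 and 0.09) lie close to it, and that of the TFEB family (-0.43) lies to the left.

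Of the 19 members that rose, 10 kept an adjusted p under 0.05 in every alternative processing that was run, including each sample left out: CTSS, LGMN, CTSD, CTSL, CTSH, GAA, NEU1, LIPA, SCARB2 and ATP6V1A. Of the 10 that fell, 7 did so: CTSZ, CTSB, CD63, ATP6V0E2, ATP6V0A4, ATP6V1F and TFE3. Testing without the filter on low counts ended the calls of CTSK, GLA, GLB1, PSAP, LAMP1, NPC1, ATP6V0D1, TFEB and ATP6V0B. The DESeq2 Wald test ended those of CTSK, GLA, ATP6V0D1, TFEB, ATP6V0B and ATP6V1E2. Upper-quartile factors ended those of GLA and ATP6V0D1, and scaling by library size, like a minimum of 10 counts in every sample, ended that of ATP6V0B.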

How the data were processed

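RNA-seq of HCC1954 cells was analysed in 2 shCON and 2 shZDHHC15 samples, grouped by their titles. The authors deposited 1 table of raw read counts per gene, not normalized, with gene positions and lengths. NEBNext Ultra libraries were used, and the submitters' processing notes name HISAT2, StringTie, SAMtools and hg38. The counting tool and its strand setting are not given in the sources used here. All 58735 genes matched GENCODE release 29 by position and symbol, and 0 columns of sample values were left out.

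Counts were filtered with filterByExpr and tested on the whole table with edgeR 4.0.16 (R 4.3.3, limma 3.58.1): TMM factors (0.962 to 1.03), glmQLFit with legacy = FALSE, glmQLFTest, two-sided, with Benjamini-Hochberg adjustment over 15817 genes and a threshold of 0.05. Standard errors were taken from the F statistic. CPM used TMM-scaled library sizes, and class sums used CPM per kilobase of summed exon length. The floor of 3 counts was 0.153 to 0.178 CPM and covers counting error only. The biological coefficient of variation was 0.0878. Samples of a group differed beyond sampling noise (chi-square per degree of freedom 8.32 and 6.79). The fits were tested on simulated data with 200 changed genes. The main test recovered 90.5% of changes of 1.5 on the log2 scale, and 7.18% of its calls were false. At a change of 0.5 it recovered 33.5%, with 8.22% of its calls false. In the data 42.0% of all tested genes were called, far more than were changed in the simulation. The simulated rates therefore need not hold for the data.

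The members, classes and lists were chosen with earlier results of these data known. Values in each sample are given for members past 2-fold, for the called member with the greatest change in each direction of each class, and for the TFEB family. The other listed genes named are those past 2-fold, at most 3 per list, plus counterparts of members, except where the text says that a gene was named after its values were seen. Alternatives were other scalings (upper-quartile factors, size factors from DESeq2 1.42.0, or none beyond library size), other filters (none, or a minimum of 10 counts throughout), other tests (DESeq2's Wald test, edgeR with legacy = TRUE, or a block for replicate number), and leaving out each sample, after which the lone sample is assumed to vary like the other group. Leaving out overlapping members and symbols that are no subunit was added after seeing the data. Promoter windows came from RefSeq, and 17 members without an entry were not searched: ASAH1, ATP6V0D2, ATP6V0E1, ATP6V1A, ATP6V1B2, ATP6V1C1, ATP6V1E2, ATP6V1FNB, ATP6V1H, CTSB, CTSK, CTSS, HEXA, LAMP2, LGMN, NAGLU and PSAP.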

Additional observations from a re-analysis of the deposited data

How the results depend on the processing

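The number of members that rose was 19 and ranged from 15 (DESeq2 Wald test) to 25 (library size only) under the alternatives, except that it was 11 without the filter on low counts. Leaving out 1 sample gave 11 to 18 (11 without either shZDHHC15 sample), 8 to 11 members that fell, and 3 to 5 past 2-fold. Members overlapping another gene by at least 5% of exon length were also set aside, which left 39 members, 38 of them tested. Of the 19 that rose 16 were left, and of the 10 that fell 6 were left. Replicate numbers did not pair the samples (correlation of deviations 0.0344), and with the number as a block 22 members rose and 12 fell.

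Class medians shifted by scaling. By library size only, the median of all genes was 0.09, and the class medians were 0.50 for cathepsins, 0.30 for glycosidases, 0.33 for lipid genes, 0.0474 for membrane proteins, 0.10 for V0 and 0.17 for V1. Upper-quartile factors gave 0.22 for lipid genes and -0.059 for membrane proteins, whose median was also -0.0405 with DESeq2 size factors, -0.0409 with the DESeq2 Wald test and -0.0454 without a filter. With 1 sample left out, medians ranged from 0.33 to 0.48 (cathepsins), 0.14 to 0.28 (glycosidases), -0.0733 to -0.0184 (membrane), -0.0814 to 0.0218 (V0), 0.0255 to 0.15 (V1) and -0.66 to -0.24 (TFEB family).

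Some genes near 0 that did not pass changed sign. These were CTSC (0.0348) and ATP6V0C (0.0605) by library size only, and ATP6V1B2 with upper-quartile factors (-0.0139) and without a filter (-0.0005). With 1 sample left out, log2 fold changes ranged from -0.10 to 0.0139 for CTSC, -0.0274 to 0.0536 for MAN2B1, -0.0844 to 0.0423 for ATP6V0C, -0.0783 to 0.17 for ATP6V0A2, -0.0151 to 0.021 for ATP6V1B2 and -0.0151 to 0.0764 for ATP6AP1. Over 75 genes (52 tested members and 23 other genes), 809 of 899 comparisons kept direction and side of the threshold, 55 lost the call, 23 gained one and 12 changed sign. The cause was not tested.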

Other observations

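Genes of autophagy, the route by which cytosolic cargo reaches the lysosome, were counted in the same fit. Of 24 tested, 6 rose (25.0%) and 5 fell (20.8%), close to the 21.7% and 20.3% of all tested genes, and the median log2 fold change was 0.06. The gene with the greatest rise, named after its value was seen, was OPTN, a cargo receptor, with 581 and 492 counts in shCON and 1067 and 1029 in shZDHHC15 (log2 fold change 0.84 ± 0.11). The one with the greatest fall, named likewise, was GABARAPL1, with 764 and 793 counts against 506 and 546 (-0.69 ± 0.12).

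Inhibitors of cysteine cathepsins were measured beside their targets. Of 8 cystatin genes, 3 passed the filter. CSTB, cystatin B of the cytosol, had 2032 and 1967 counts in shCON and 3848 and 3697 in shZDHHC15 (log2 fold change 0.79 ± 0.09, adjusted p = 1.24e-05, edgeR). CSTA, its epithelial relative, had 114 and 105 counts against 239 and 249 (1.03 ± 0.17, adjusted p = 2.07e-04, edgeR). CST6, secreted cystatin M/E, an inhibitor of legumain and CTSV, fell from 237 and 341 counts to 126 and 160 (-1.15 ± 0.21, adjusted p = 4.56e-04, edgeR). The shCON samples of CST6 lay apart from each other and both above both shZDHHC15 samples. CST3, the secreted inhibitor cystatin C, had 0 counts in both shCON samples and 6 and 5 in shZDHHC15 and was not tested.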
